A study of Mus musculus with 31 samples.

Results

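Scd1, Scd2, Fads1, Fads2, Elovl5 and Elovl6 encode desaturases and elongases, enzymes that set the double bonds and the chain length of fatty acids, and were measured in mouse colon. These 6 genes were chosen by name, with earlier results of these data known. Each is represented by its only probe set with a single gene symbol. Thus 6 of the 18820 genes with such a probe set are described. All 6 were above a filter on dim probe sets on 31 of 31 arrays and are among the 12795 genes tested. Male C57Bl/6J mice of 13 weeks ate a high-fat diet (HFD) with 45% of energy from fat, or a low-fat diet (LFD) with 10%, both semi-synthetic and with palm oil in place of lard. Since the rest of the energy differs too, an effect of fat cannot be told apart from one of the other components. The labels give 2 weeks of chow and 2 weeks on the diet before the infusions, for all groups. On 6 consecutive days each mouse received, under light sedation, a rectal infusion of 80 µL of isotonic saline that held 100 mM sodium acetate, propionate or butyrate, or of saline alone. The 8 groups were thus acetate HFD, propionate HFD, butyrate HFD and saline HFD, and the same infusions on LFD. RNA came from scrapings of the colonic lining taken 4 h after the last infusion, 1 single-colour array per sample. There were 4 arrays per group (n = 4), except for acetate on LFD with 3 (n = 3). Each group had 6 mice according to the labels, which leave it unsaid from which mice the RNA on the arrays came.

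A fatty acid that is made or eaten as a saturated chain is remodelled in the membrane of the endoplasmic reticulum. Stearoyl-CoA desaturases (Scd1, Scd2) put the first double bond into saturated chains and give monounsaturated fatty acids such as oleate. The desaturases Fads1 and Fads2 add double bonds to polyunsaturated chains nearer the carboxyl end, and elongases add carbon pairs between these steps. Elovl6 mainly lengthens palmitate, and Elovl5 acts on polyunsaturated chains. Sterol regulatory element binding proteins, encoded by Srebf1 and Srebf2, are known to activate many of these genes, and polyunsaturated fatty acids are known to repress them.

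Scd1 (probe set 10467979) and Scd2 (10463355) lie near each other on chromosome 19, at chr19:44394450-44407709 and chr19:44293676-44306864 of GRCm38.p6. Fads1 (10461439) and Fads2 (10465895) are close to each other on the same chromosome, at chr19:10182877-10196874 and chr19:10062765-10101503. Elovl5 (10587284) is at chr9:77917365-77984519 and Elovl6 (10495993) at chr3:129532386-129638495. The coordinates are those of whole genes in the RefSeq annotation, and the build behind the array's probes is not given in the sources used here. Scd1 and Scd2 are close in sequence, and whether their probes take up each other's transcript was not tested.

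RefSeq promoter windows, 250 bases before to 50 after the start of the gene, matched 3 of the 6 genes, Fads2, Elovl5 and Elovl6. The windows of Elovl5, which was lower on HFD, and of Fads2, whose diet difference was close to 0, are shown because they are the pair that differed most in the result. Both strands were searched for the sterol regulatory element core TCACNCCAC, the NF-Y box CCAAT and the Sp1 box GGGCGG, and matches are in capitals. The windows are chr9:77917115-77917414 (plus strand) and chr19:10101454-10101753 (minus strand) of GRCm38.p6, each written 5′ to 3′ along its gene.
Elovl5: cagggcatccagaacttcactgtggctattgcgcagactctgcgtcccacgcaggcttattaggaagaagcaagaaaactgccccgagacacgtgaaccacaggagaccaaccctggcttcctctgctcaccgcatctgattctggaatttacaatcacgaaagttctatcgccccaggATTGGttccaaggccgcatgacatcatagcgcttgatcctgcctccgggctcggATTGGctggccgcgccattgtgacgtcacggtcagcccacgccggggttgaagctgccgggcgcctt
Fads2: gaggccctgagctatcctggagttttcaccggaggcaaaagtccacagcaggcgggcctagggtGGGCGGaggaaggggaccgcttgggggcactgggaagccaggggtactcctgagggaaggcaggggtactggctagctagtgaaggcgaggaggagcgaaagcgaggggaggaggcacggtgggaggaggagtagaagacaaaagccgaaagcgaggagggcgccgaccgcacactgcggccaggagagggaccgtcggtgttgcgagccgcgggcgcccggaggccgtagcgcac
The Elovl5 window held CCAAT on the opposite strand (ATTGG) at -71 and -17 from the start, and the Fads2 window held GGGCGG at -186. CCAAT was in 37.4%, GGGCGG in 35.7% and TCACNCCAC in 1.24% of the 32851 promoter windows of this length. TCACNCCAC was in none of the 3 windows, and the Elovl6 window (chr3:129532136-129532435, plus strand) held none of the 3 motifs. These matches describe the letters in a window and say nothing of binding.

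On HFD, taken over all 4 infusions, the colon held less transcript of Scd1, Scd2, Fads1 and Elovl5 than on LFD. Scd1 fell by 55.2%, the largest change of the 6, and no difference was called for Fads2, the partner desaturase of Fads1. Thus 4 of the 6 genes were called lower at an adjusted p under 0.05, against 1.16% of all tested genes called lower. Of these calls those of Scd2, Fads1 and Elovl5 were lost with a small intestine marker mean as a covariate (adjusted p of 0.0610, 0.0519 and 0.0519) and without the 3 arrays highest in adipocyte markers (0.0517, 0.0517 and 0.0715). None was called higher, against 1.53% of all tested genes called higher. The median difference was -0.43 over the 6 genes and 0.01 over all genes. Differences are HFD minus LFD on the log2 scale ± the standard error of the limma fit, and adjusted p-values are over all 12795 genes. Less RNA per cell and fewer cells of a type cannot be told apart in scrapings.

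Scd1, the main enzyme of oleate synthesis in many tissues, separated the diets most. Under saline it measured 8.06, 8.54, 7.95 and 8.34 on the HFD arrays, against 9.71, 9.97, 8.88 and 9.06 on the LFD arrays (log2 levels, in order of replicate number here and below). Under acetate it measured 8.81, 8.14, 7.61 and 8.32 on HFD, against 8.45, 9.29 and 9.34 on LFD. Acetate HFD 1 thus lay above the lowest acetate LFD array, while under saline the diets did not overlap. Under propionate the levels were 7.80, 8.05, 7.68 and 8.19 on HFD, against 9.56, 9.81, 9.80 and 9.52 on LFD. Under butyrate they were 8.38, 8.83, 7.59 and 8.46 on HFD, against 9.36, 10.22, 8.64 and 8.63 on LFD. The propionate groups stood widely apart, and the butyrate groups overlapped through butyrate HFD 2. The mean was 8.17 ± 0.39 on HFD (SD, n = 16) and 9.35 ± 0.53 on LFD (SD, n = 15). The difference was -1.16 ± 0.15 (adjusted p = 0.000488), with 16 of 16 HFD arrays below the mean of the LFD group with the same infusion. It remained past the threshold under every alternative tried, between -1.23 and -0.96.

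**Figure D1:**
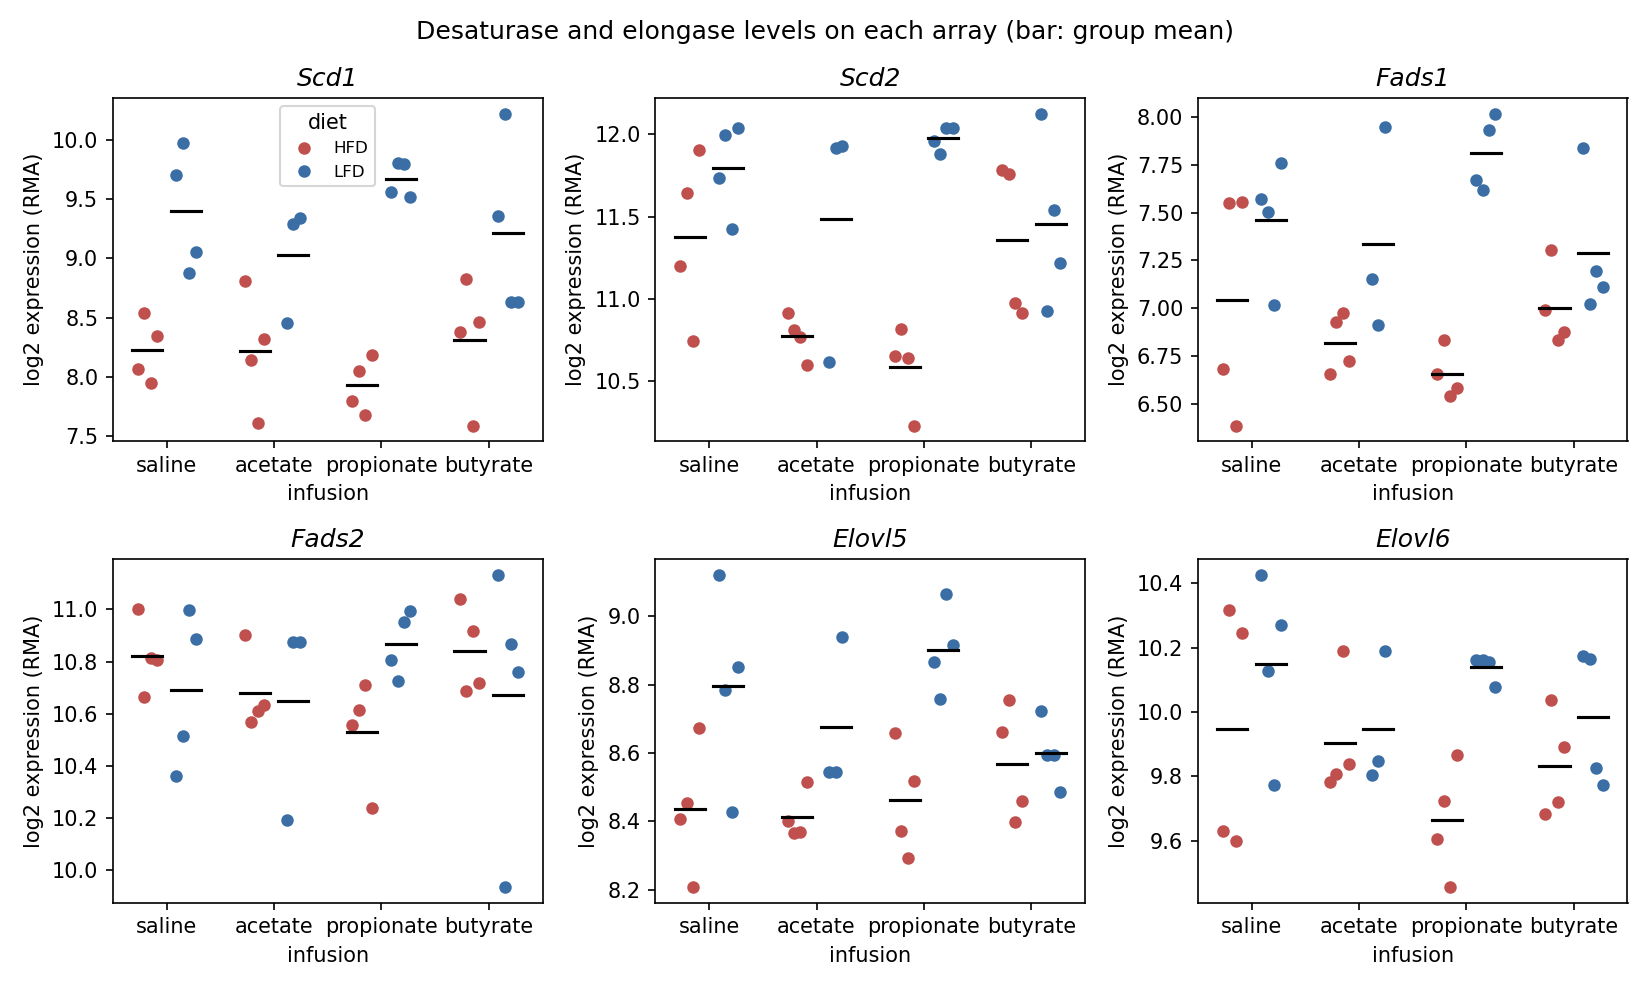
Log2 levels (vertical axes) of the 6 genes on each of the 31 arrays by infusion, with HFD points left of LFD points and a bar at each group mean. The Scd1 arrays under propionate lie between 7.68 and 8.19 on HFD and between 9.52 and 9.81 on LFD, while the Fads2 groups overlap under every infusion but propionate.

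Scd2, a desaturase of the same reaction, had a smaller and less even difference. Under saline its levels were 11.20, 11.65, 10.75 and 11.90 on HFD, against 11.73, 12.00, 11.42 and 12.04 on LFD. Under acetate they were 10.92, 10.81, 10.77 and 10.60 on HFD, against 10.61, 11.92 and 11.93 on LFD. The diets overlapped in both, under acetate through the single low array acetate LFD 1. Under propionate Scd2 measured 10.65, 10.82, 10.64 and 10.23 on HFD, against 11.96, 11.88, 12.04 and 12.04 on LFD. Under butyrate it measured 11.78, 11.76, 10.98 and 10.92 on HFD, against 12.13, 10.93, 11.54 and 11.22 on LFD. The diets stood apart by more than the spread within either group under propionate and were mixed under butyrate. Over all infusions the difference was -0.66 ± 0.14 (adjusted p = 0.0189), with 13 of 16 HFD arrays below their LFD group mean.

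Fads1 encodes the delta-5 desaturase, which makes arachidonate. It measured 6.68, 7.55, 6.38 and 7.56 on HFD under saline, against 7.57, 7.50, 7.02 and 7.76 on LFD. Under acetate it measured 6.65, 6.93, 6.98 and 6.72 on HFD, against 7.15, 6.91 and 7.95 on LFD. In both infusions the diets overlapped, with saline HFD 2 and 4 among the LFD values. Under propionate the levels were 6.66, 6.83, 6.54 and 6.58 on HFD, against 7.67, 7.62, 7.93 and 8.02 on LFD. Under butyrate they were 6.99, 7.31, 6.83 and 6.88 on HFD, against 7.84, 7.02, 7.19 and 7.11 on LFD. Only butyrate HFD 2 reached the LFD values there. The difference over all infusions was -0.60 ± 0.12 (adjusted p = 0.0161), again with 13 of 16 arrays below.

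Fads2 encodes the delta-6 desaturase, which acts before Fads1 on the same chains. Over all arrays its level ran from 10.24 over a median of 10.70 to 11.04 on HFD, and from 9.94 over 10.87 to 11.13 on LFD. The HFD range lay inside the LFD range. The difference over all infusions was 0.00 ± 0.09 (95% interval -0.19 to 0.19, adjusted p = 0.989), and its sign turned with small changes of the setting. Without the 3 arrays highest in adipocyte markers, which are all LFD arrays and include low Fads2 levels, it was -0.13 (adjusted p = 0.332). Of the separate infusions, propionate gave -0.34 ± 0.18 (adjusted p = 0.249), with 10.56, 10.61, 10.71 and 10.24 on HFD, against 10.81, 10.72, 10.95 and 10.99 on LFD. The diets did not overlap there, though by a narrow margin, and the difference missed the threshold.

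The elongases differed less than Scd1, Scd2 and Fads1. Elovl5 ran from 8.21 over a median of 8.43 to 8.76 on HFD, and from 8.43 over 8.76 to 9.12 on LFD. Its difference was -0.27 ± 0.06 (adjusted p = 0.0201), with 14 of 16 HFD arrays below their LFD group mean. Elovl6, the elongase of palmitate, ran from 9.46 over a median of 9.79 to 10.32 on HFD, and from 9.77 over 10.16 to 10.43 on LFD. Its difference of -0.22 ± 0.08 missed the threshold (adjusted p = 0.0959), with 12 of 16 HFD arrays below. It passed with array weights (adjusted p = 0.0409), without saline LFD 3 (adjusted p = 0.0360) and without the 4 arrays high in small intestine transcripts (adjusted p = 0.0280).

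Within single infusions the diet difference was called under propionate and under no other infusion. Under propionate Scd1 fell by 70.1% (-1.74 ± 0.30), Scd2 differed by -1.39 ± 0.27 and Fads1 by -1.16 ± 0.23 on the log2 scale, each at an adjusted p of 0.0133. Elovl5 differed by -0.44 ± 0.12 (adjusted p = 0.0297), and Elovl6 missed the threshold at -0.48 ± 0.15 (adjusted p = 0.0517). With these, 4 of 6 genes were called lower, against 4.82% of all genes, and none higher, against 2.05%. In all 6 genes every propionate HFD array lay below every propionate LFD array, which held for 8.77% of all genes. The median over the 6 was -0.82, against -0.02 over all genes. Some of these calls changed with single arrays. Elovl5 lost its call without propionate HFD 2 or 3 or without propionate LFD 1, 3 or 4 (adjusted p from 0.0503 to 0.110). Elovl6 gained one when any of 10 arrays was left out (adjusted p from 0.0397 to 0.0483): saline HFD 1, 2, 3 or 4, saline LFD 1 or 3, acetate HFD 3, acetate LFD 1 or 3, or propionate HFD 4.

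Under saline, acetate and butyrate limma called none of the 12795 genes by diet, and so none of the 6. At an unadjusted p under 0.05 there were 932 genes under saline (7.28%), 986 under acetate (7.71%) and 469 under butyrate (3.67%). Among the 6 genes these were Scd1 and Elovl5 under saline, Scd1, Scd2 and Fads1 under acetate, and Scd1 alone under butyrate. Scd1 differed by -1.18 ± 0.30 under saline (adjusted p = 0.667), -0.81 ± 0.33 under acetate (adjusted p = 0.629) and -0.90 ± 0.30 under butyrate (adjusted p = 1.000). Every saline HFD array lay below every saline LFD array in Scd1 alone, 1 of 6 genes against 0.797% of all genes. The same held under acetate for Elovl5 alone, 1 of 6 against 4.18%, and under butyrate for none of the 6 against 0.766%. The 5 diet comparisons share arrays, so their values are given side by side and were not counted as separate evidence. The diet difference under propionate was not shown to differ from that under saline: for Scd1 that term was -0.56 ± 0.43 (adjusted p = 0.606), and it was called for none of the 6 genes.

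**Figure D2:**
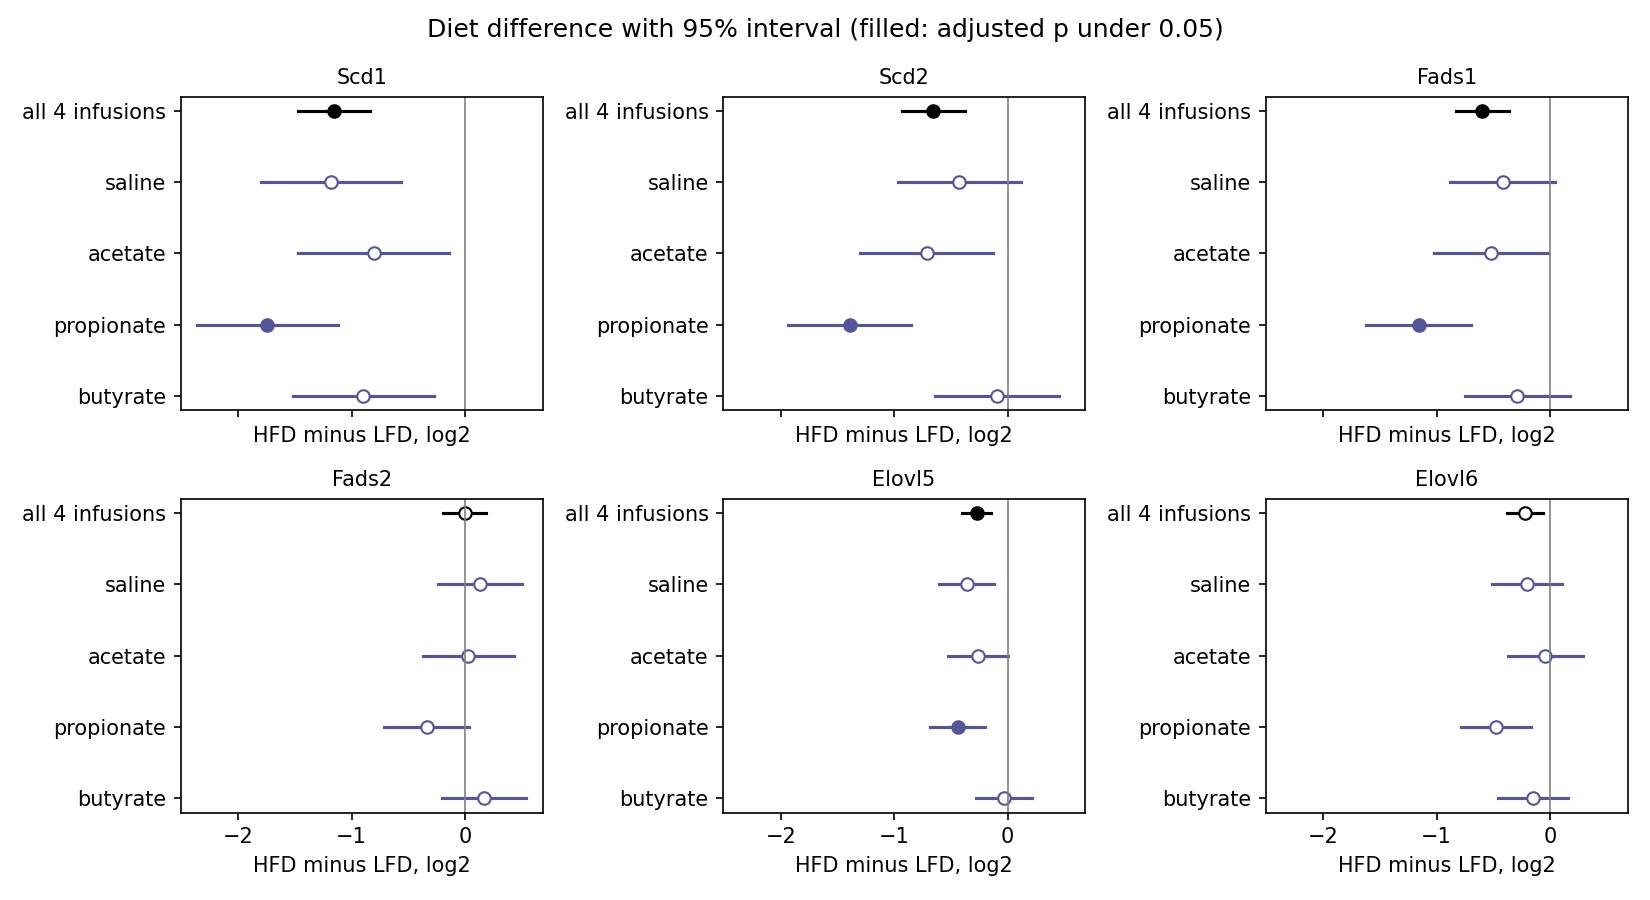
HFD minus LFD in log2 units (horizontal axes) with 95% intervals for each gene, over all 4 infusions and under each. Filled points have an adjusted p under 0.05, namely Scd1, Scd2, Fads1 and Elovl5 over all infusions and under propionate, while Fads2 over all infusions sits at 0.00.

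The order of the 8 groups shows where the genes part. The lowest mean of Scd1 was in propionate HFD (7.93 ± 0.23, SD, n = 4) and the highest in propionate LFD (9.67 ± 0.15, SD, n = 4), with all HFD groups below all LFD groups. The 1 step in that order that exceeded the larger SD of its neighbours was that between butyrate HFD and acetate LFD, 0.71. Scd2 and Fads1 also had their lowest mean in propionate HFD and their highest in propionate LFD. In Scd2 the step that exceeded the SD was between butyrate HFD and acetate HFD (0.58). The means of acetate HFD (10.77 ± 0.13, SD, n = 4) and propionate HFD (10.59 ± 0.25, SD, n = 4) lay below those of the other 6 groups. Single arrays of other groups lay among their values, saline HFD 3 at 10.75 and acetate LFD 1 at 10.61. In Fads1 such steps were those at the top, propionate LFD over saline LFD (0.35), and at the bottom, acetate HFD over propionate HFD (0.17). Fads2 and Elovl5 peaked in propionate LFD as well and Elovl6 in saline LFD, and in these 3 genes no neighbouring groups differed by more than their spread. Propionate HFD was lowest in Fads2 and Elovl6, and acetate HFD in Elovl5.

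Whether the infused acids themselves moved these genes was asked within each diet, acid against saline. None of the 6 genes was called for acetate, propionate or butyrate on either diet, and limma called none of the 12795 genes in these 6 comparisons, in either direction. The 3 comparisons of a diet share its saline arrays. At an unadjusted p under 0.05 there were 321 genes for acetate (2.51%), 1497 for propionate (11.7%) and 513 for butyrate (4.01%) on HFD. On LFD there were 193 for acetate (1.51%), 487 for propionate (3.81%) and 358 for butyrate (2.8%). Of the 6 genes Scd2 alone reached this level, and on HFD alone. Scd2 was 10.59 ± 0.25 in propionate HFD, against 11.37 ± 0.51 in saline HFD (SD, n = 4 each). The difference was -0.79 ± 0.27 (95% interval -1.33 to -0.24, adjusted p = 0.295). All 4 propionate arrays were below the saline mean, and 1 of them, propionate HFD 2 at 10.82, lay above the lowest saline array. For acetate HFD the Scd2 difference was -0.60 ± 0.27 (95% interval -1.15 to -0.06, unadjusted p = 0.0321), and it also missed the threshold after adjustment.

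The propionate minus saline difference was above 0 in 1 of the 6 genes on HFD and in 5 of the 6 on LFD, where no interval left out 0. Scd1 differed by 0.27 ± 0.30 (95% interval -0.35 to 0.89) and Fads1 by 0.35 ± 0.23 (95% interval -0.12 to 0.81) between propionate LFD and saline LFD. The difference between the diets in the response to propionate was -0.97 ± 0.38 for Scd2 (adjusted p = 0.278) and -0.74 ± 0.32 for Fads1 (adjusted p = 0.323). This term was called for none of the 6 genes and for none of all genes, with 1643 at an unadjusted p under 0.05 (12.8%), Scd2 and Fads1 among them. The same term for acetate and for butyrate held none of the 6 at that level, against 108 (0.844%) and 291 (2.27%) of all genes.

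**Figure D3:**
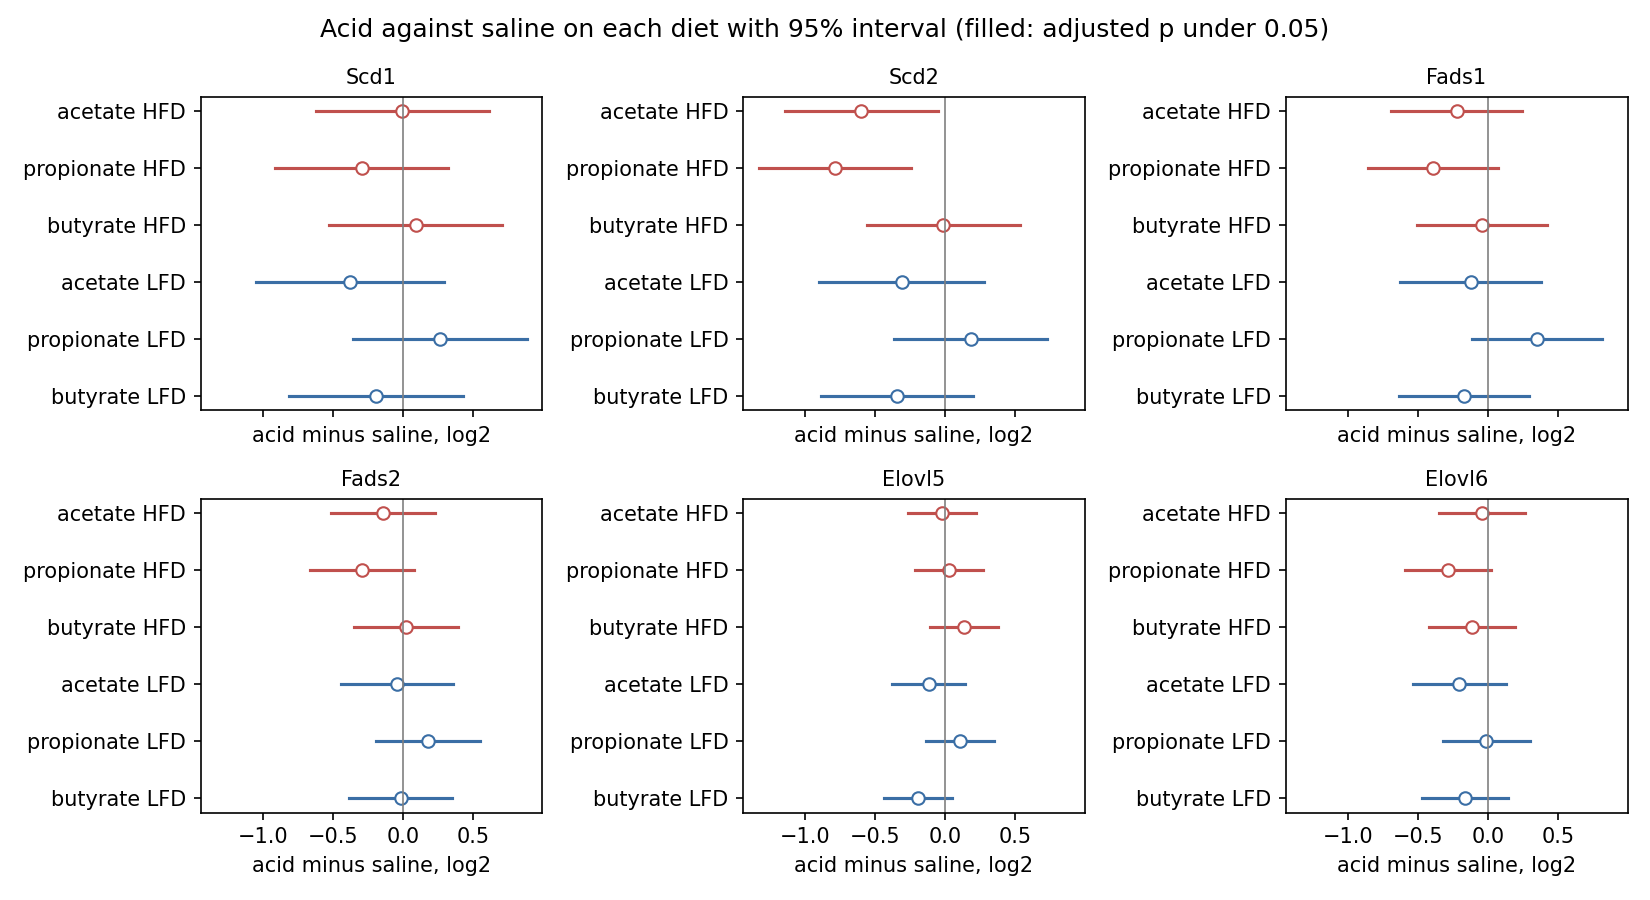
Acid minus saline in log2 units (horizontal axes) with 95% intervals for each gene, on HFD and on LFD. No point has an adjusted p under 0.05, and the 2 intervals on HFD that leave out 0 are those of Scd2 under acetate and propionate.

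The 3 acids are linear carboxylates that differ in chain length, acetate being the shortest and butyrate the longest, and were infused at the same 100 mM and sampled at the same 4 h. Each pair was compared on each diet, 6 comparisons in all, with p-values adjusted over all genes of a comparison. None of the 6 genes was called in any of the 6. On HFD limma called 8 of all genes between butyrate and propionate (0.0625%) and none in the other 5 comparisons. The unadjusted p was under 0.05 on HFD for 2217 genes between butyrate and propionate (17.3%), 466 between butyrate and acetate (3.64%) and 1686 between propionate and acetate (13.2%). On LFD the same pairs had 463 (3.62%), 179 (1.4%) and 473 genes (3.7%).

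On HFD Scd2 measured 11.78, 11.76, 10.98 and 10.92 under butyrate, against 10.65, 10.82, 10.64 and 10.23 under propionate. Every butyrate array was above every propionate array, and the difference was 0.77 ± 0.27 (95% interval 0.23 to 1.32, adjusted p = 0.148). Against acetate, with 10.92, 10.81, 10.77 and 10.60, the same butyrate arrays differed by 0.58 ± 0.27 (95% interval 0.04 to 1.13, adjusted p = 0.996). The groups did not overlap there either, by a margin of less than 0.01. The groups stood apart without overlap in 2 of the 6 genes between butyrate and propionate, Scd2 and, by a margin of less than 0.01, Fads1, where 7.25% of all genes did. Between butyrate and acetate it was 1 of 6, against 3.07%, and between propionate and acetate on HFD none, against 4.52%. The propionate minus acetate difference on HFD was -0.19 ± 0.27 for Scd2 (95% interval -0.73 to 0.36) and -0.29 ± 0.30 for Scd1 (95% interval -0.91 to 0.33), intervals that leave room for differences of either sign.

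On LFD the intervals that left out 0 were both between butyrate and propionate, with Fads1 at -0.52 ± 0.23 (95% interval -0.99 to -0.06) and Elovl5 at -0.30 ± 0.12 (95% interval -0.55 to -0.06), each at an adjusted p of 0.999. Elovl5 measured 8.72, 8.59, 8.59 and 8.49 under butyrate, against 8.87, 8.76, 9.07 and 8.92 under propionate. These groups did not overlap, 1 of 6 genes against 2.83% of all genes, and those of Fads1 did. Between propionate and acetate on LFD Scd1 alone did not overlap, 1 of 6 against 4.77%, with a difference of 0.64 ± 0.33 (95% interval -0.03 to 1.31). Between butyrate and acetate on LFD no gene of the 6 stood apart, against 2.49%.

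Across arrays the genes other than Fads2 correlated with each other, and Fads2 did so mainly with Scd2. The following correlations describe the 31 arrays, which share diets, infusions and whatever set the make-up of a scraping. Levels of Scd2 and Fads1 correlated with an r of 0.84, Fads1 and Elovl5 with 0.82 and Fads1 and Elovl6 with 0.80. Fads2 correlated with the other 5 genes at -0.13 to 0.51, the highest being Scd2. After the group means were taken out, Fads1 still went with Elovl6 (0.76), Elovl5 (0.69) and Scd2 (0.69), and Scd1 with Fads1 at 0.23. Fads2 then correlated with Scd2 at 0.52, with Fads1 at 0.12 and with Scd1, Elovl5 and Elovl6 below 0 (-0.35, -0.09 and -0.35). Arrays of 1 group that were high in Fads1 were thus mostly high in the elongases, while Scd1 varied within groups largely apart from Fads1. With Elovl6, Elovl5 and Scd2 the r of Scd1 within groups was 0.47, 0.44 and 0.31.

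The transcripts closest to each gene over the 31 arrays differed between them. Closest to Scd2 were the cholesterol synthesis genes Sqle (r = 0.92), Idi1 (0.92), Msmo1 (0.92) and Hmgcs1 (0.90), and Creld2 (0.92), an endoplasmic reticulum stress gene. With group means taken out, the closest to Scd2 were Creld2 (0.89) and the endoplasmic reticulum genes Hyou1 (0.89), Manf (0.87) and Hsp90b1 (0.87), with Msmo1 (0.86) after them. Fads1 went with the sterol genes Lss (0.91), Cyp51 (0.90) and Fdps (0.89), with Acaca (0.89), the enzyme of malonyl-CoA synthesis, and with the disulfide isomerase Pdia6 (0.88). Within groups Fads1 went with Praf2 (0.87), Pola2 (0.85), Pdia6 (0.84), Nbas (0.82) and Ssr2 (0.82). Acaca was also first for Elovl5 (0.89) and the second for Scd1 (0.80), after the aminopeptidase Xpnpep1 (0.83). Elovl6 went with Suox (0.88), which encodes sulfite oxidase, Fam3b (0.84) and Pls1 (0.84). Within groups Suox (0.85) and Fam3b (0.82) were again first for Elovl6, and Nampt (0.87), an enzyme of NAD synthesis, was first for Elovl5. Fads2 went with Aldh1l1 (0.94), an enzyme of folate metabolism, Hoxb13 (0.90), a homeobox gene of the hindgut, and Clic6 (0.90).

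For Fads2 and Scd1 some of the closest transcripts within groups point to particular arrays. Hoxb13 had its lowest levels on butyrate LFD 2 (7.43), acetate LFD 1 (7.91) and saline LFD 1 (8.54), and Fads2 measured 9.94, 10.19 and 10.36 on these. They were 3 of the 4 arrays lowest in Fads2, the other being propionate HFD 4 (10.24, with Hoxb13 at 8.70). With group means taken out, the r of Fads2 was 0.96 with Clic6, 0.94 with Tbc1d2b and Aldh1l1, 0.93 with Hoxb13 and 0.91 with Ctse. Hoxb13 itself differed by 0.23 ± 0.20 between the diets over all infusions (adjusted p = 0.521). Scd1 within groups went with Slc39a4, a zinc transporter (0.81), Adipoq (0.73), Thrsp (0.70), Tubb2a (0.70) and Cidec (0.66). Adipoq and Cidec are known from fat cells, and Thrsp is listed here under fatty acid supply. Adipoq (mean 3.94 on HFD and 4.19 on LFD) and Thrsp (3.83 and 4.27) were dim, with means below the filter level of 4.32.

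Of 10 adipocyte markers 7 passed the filter, Lep and Cidea were below it, and Cfd was not analysed here. The mean log2 level of the 7 lay between 4.90 and 5.95 on HFD and between 4.78 and 6.54 on LFD, and none of the 7 was called by diet. The highest arrays were butyrate LFD 2 (6.54), saline LFD 1 (6.44) and saline LFD 2 (6.12), and Scd1 measured 10.22, 9.71 and 9.97 on these. Within groups the marker mean had an r of 0.67 with Scd1 and of -0.59 with Fads2. Without these 3 arrays the diet difference of Scd1 was -0.96 (adjusted p = 0.00176), and with the marker mean as a covariate it was -1.05 (adjusted p = 2.76e-05). With this covariate Scd2, Fads1 and Elovl5 kept their calls too. Without these 3 arrays Scd1 alone of the 6 genes kept its call. The difference was then -0.68 for Scd2, -0.60 for Fads1 and -0.23 for Elovl5, against -0.66, -0.60 and -0.27 with all arrays. Of all genes 2 were then called, against 345 with all arrays. Under propionate the difference of Scd1 was -1.65 (adjusted p = 0.00133) with the marker mean as a covariate. The 7 tested of 8 macrophage and dendritic cell markers had a mean of 5.50 to 6.50 on HFD and of 5.41 to 5.90 on LFD. None of the 7 was called by diet, and all 7 lay above 0. Their mean had an r of 0.62 with Fads2 within groups and of 0.55 over levels, and the part of these cells in the Fads2 values was not tested.

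**Figure D4:**
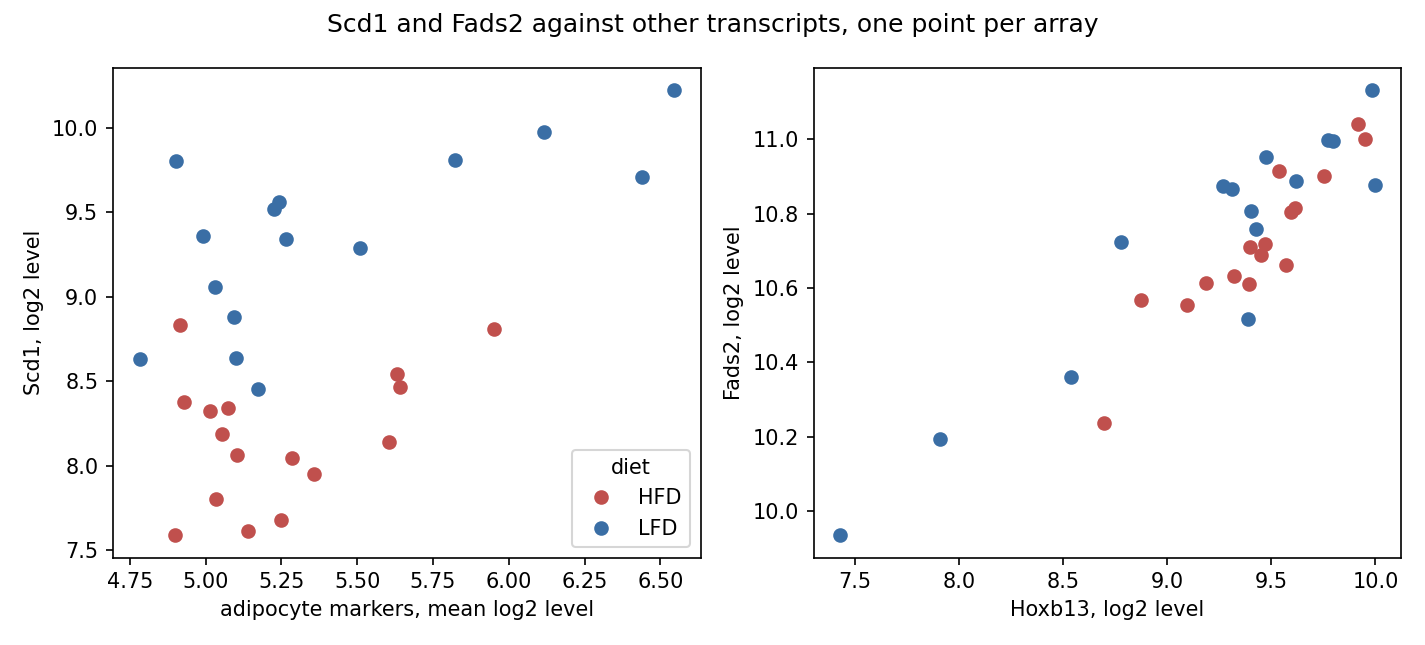
Log2 level of Scd1 against the mean log2 level of 7 adipocyte markers, and of Fads2 against Hoxb13, 1 point per array. In Scd1 12 of the 16 HFD points lie below every LFD point, with butyrate LFD 2 at the upper right (10.22) and at the lower left of the Fads2 panel (9.94).

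All 9 of 9 colon epithelium markers passed the filter, with array means of 11.6 to 11.8. The 4 arrays highest in small intestine markers had means of 11.78 to 11.83, so this list does not set the colon apart from small intestine. The mean of the list was 11.69 on HFD and 11.74 on LFD. Its r ran from -0.19 for Fads2 to 0.56 for Elovl6 over levels, and from -0.25 to 0.48 for the same genes within groups. The part of epithelial content in these values was not tested. Small intestine transcripts differed with diet. All 11 markers of it were tested and lay below 0, and Fabp6 and Slc5a1 were called lower on HFD (-0.90 ± 0.22 and -0.16 ± 0.04, adjusted p = 0.0259 and 0.0494). Their mean ran from 5.82 to 7.96 on HFD and from 5.99 to 8.54 on LFD, with saline HFD 2, saline LFD 2 and 3 and propionate LFD 2 at the top. Without these 4 arrays the diet difference was -1.17 for Scd1, -0.71 for Scd2, -0.70 for Fads1 and -0.33 for Elovl5, all past the threshold, and Elovl6 passed too. With the marker mean as a covariate Scd1 kept its call at -1.06 (adjusted p = 0.00981), and Scd2 (-0.64), Fads1 (-0.59) and Elovl5 (-0.32) lost theirs. Smooth muscle markers were high on saline HFD 1 and 2 (7.10 and 6.80). The 4 diet calls held without them. Of 10 markers of sebaceous gland and squamous epithelium, cells known for Scd1 in skin, 3 passed the filter, with array means of 4.51 to 4.77 on HFD and of at most 4.84 on LFD.

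The genes around the 6 enzymes were read from lists of the same pathway. Over all infusions, where 1.16% of all genes were called lower, 4 of the 10 genes of fatty acid supply were called lower on HFD, Acaca (-0.27 ± 0.05), Fasn (-0.35 ± 0.08), the fatty acid synthase, Me1 (-0.45 ± 0.11), a source of NADPH, and Mid1ip1 (-0.42 ± 0.08), an activator of acetyl-CoA carboxylase. The median of that list was -0.21. Of 7 other desaturases and elongases that were tested 2 were lower, Scd4 (-0.27 ± 0.07) and Elovl1 (-0.19 ± 0.05), which lengthens very long saturated chains, and the median was -0.13. Scd4 was dim, with means of 4.32 in saline HFD and 4.65 in saline LFD, close to the filter level of 4.32. Scd3, Elovl2, Elovl3 and Elovl4 were below the filter. In the elongation cycle and its electron donors 1 of 10 was lower, the cytochrome b5 gene Cyb5b (-0.23 ± 0.06), with a median of -0.09. Of 13 regulators Srebf1 was lower (-0.27 ± 0.07, adjusted p = 0.0499), with a list median of -0.05, and Srebf2 missed the threshold (-0.17 ± 0.06, adjusted p = 0.0731). Of 12 genes of activation and acyl transfer Acsl4, which activates arachidonate, was lower (-0.35 ± 0.09), with a median of -0.08. No gene of these 5 lists was called higher. These calls were all lost with the small intestine marker mean as a covariate, where Scd1 alone of all genes was called. Without the 3 arrays highest in adipocyte markers 2 genes of all were called, Scd1 among them.

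Under propionate, where 4.82% of all genes were called lower, 4 of 10 genes of the elongation cycle and its electron donors were called lower on HFD. A single call in a list of 7 or 13 genes is too few to set against that share. The 4 genes included Hsd17b12 (-0.47 ± 0.13) and Hacd3 (-0.51 ± 0.15), which act in the reduction and dehydration steps of elongation. The others were the cytochrome b5 gene Cyb5b (-0.54 ± 0.11) and Cyb5r3 (-0.35 ± 0.10), a cytochrome b5 reductase. The median of the list was -0.27, against -0.02 over all genes. Fatty acid supply had 3 of 10 lower, Fasn (-0.51 ± 0.15), Acaca (-0.47 ± 0.10) and the citrate carrier Slc25a1 (-0.38 ± 0.10), with a median of -0.30. Srebf1 (-0.56 ± 0.15) was the only one of 13 regulators, and Insig1, a sterol-sensing partner of this pathway, missed the threshold (-0.59 ± 0.19, adjusted p = 0.0538). Elovl1 (-0.34 ± 0.10) was 1 of 7 other desaturases and elongases. Acsl4 (-0.84 ± 0.17) and Lpcat3 (-0.47 ± 0.11), which places polyunsaturated chains in phospholipids, were 2 of 12 in activation and acyl transfer. None was called higher.

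**Figure D5:**
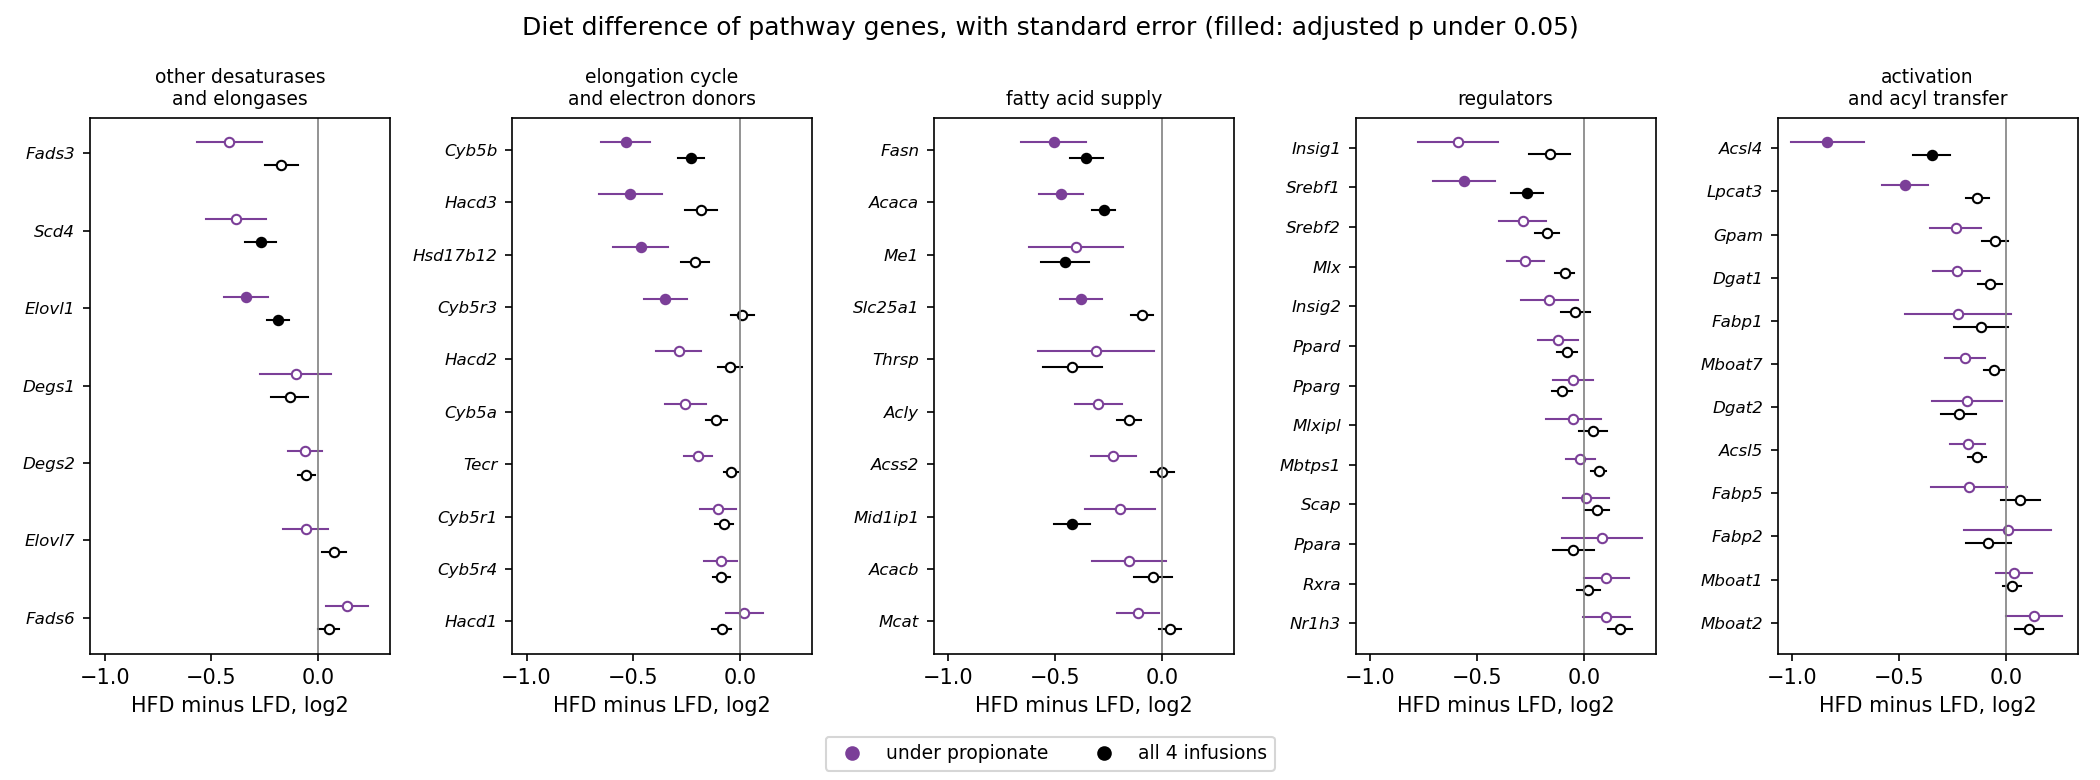
HFD minus LFD in log2 units (horizontal axes) with standard errors for the tested genes of 5 pathway lists, under propionate and over all 4 infusions. Filled points have an adjusted p under 0.05 and all lie below 0, with Acsl4 under propionate the farthest at -0.84.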

How the data were processed

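RNA of 31 colon scrapings was hybridised, 1 single-colour array per sample. The authors deposited log2 values made by RMA, per the submitters' processing notes, and neither its version nor a genome build is given in the sources used here. Array medians were 5.14 to 5.19, and the number of arrays limits the precision. Of 35556 probe sets 21218 had 1 gene symbol. Per gene the one with the highest mean over all arrays was kept. Genes with an intensity of 20 or more (log2 of 4.32) on at least 3 arrays entered the tests. Symbols came from the platform annotation, updated through gene identifiers to RefSeq (GRCm38.p6).

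One mean per group was fitted over all 31 arrays with limma 3.58.1 in R 4.3.3 (two-sided moderated test with an intensity trend), and 20 comparisons were drawn. P-values were adjusted by Benjamini-Hochberg over 12795 genes and called under 0.05. Errors pool the spread over the 8 groups. P-values measure the spread between samples. The code was tested on simulated data. The 6 genes, the pathway and marker lists and the tests were chosen with earlier results of these data known. Genes named from lists are those past the threshold (at most 8 per list), or up to 3 by smallest p where none passed. For each of the 6 genes the 5 tested genes of highest correlation were considered. Srebf2 and Insig1 were named after their values were seen, as was the pair of promoters shown.

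The fit was repeated with robust moderation, without the trend, with array weights, without the filter and with a stricter one (mean log2 of at least 6). It was also repeated over all probe sets, on the mean of a gene's probe sets, after renewed quantile normalization, with a replicate block, on the compared groups alone, with marker means as covariates, and with each array dropped in turn. Dropping the arrays high in small intestine, smooth muscle or adipocyte markers, and using all probe sets without a filter, were chosen after seeing the data.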

Additional observations from a re-analysis of the deposited data

Results flagged for a closer look

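Among 42 sets of 4 arrays (6 genes in the 7 groups of 4), 2 arrays of Elovl6 lay far from the other 3 of their group, with a gap over the whole range above the 95% critical value of Dixon's test. Chance flags about 1 in 20 such sets. In acetate HFD replicate 3 had 10.19, and the other arrays lay between 9.78 and 9.84 (gap over range 0.869). In propionate LFD replicate 4 had 10.08, and the other arrays all had 10.16 (gap over range 0.931). The second gap is large only beside the small range of that group.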

How the results depend on the processing

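The 4 genes called by diet over all infusions were called under 13 of 15 alternatives and with any 1 array left out (4 to 5 genes). The count was 1 with the small intestine marker mean as a covariate and 1 without the 3 arrays highest in adipocyte markers. Under propionate the count was 3 to 5, with any 1 array left out also 3 to 5, and Elovl5 lost its call over all probe sets without a filter (adjusted p = 0.0517). In the other 18 comparisons no gene of the 6 was called under any alternative. Over all genes the 345 diet calls moved to 1788 with array weights, 1 with the small intestine covariate, 106 over all probe sets without a filter, 559 without the 4 arrays high in small intestine markers, 115 without the 2 smooth muscle arrays and 2 without the 3 adipocyte arrays. With 1 array left out the count was 127 to 1027. It was over 1.5 times lower without saline HFD 1 or 3, saline LFD 2 or 4, acetate HFD 1 or 4, acetate LFD 2 or 3, propionate HFD 3, butyrate HFD 3 or 4, or butyrate LFD 1 or 3. It was over 1.5 times higher without saline HFD 4, saline LFD 3, acetate LFD 1, propionate HFD 1, butyrate HFD 2 or butyrate LFD 4. The cause was not tested.

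Reversals were limited to differences that were not called. Fads2 over all infusions became 0.0158 after renewed quantile normalization, 0.0147 without the small intestine arrays and -0.0647 to 0.0351 with 1 array left out. Without the 3 adipocyte arrays it was -0.12 under saline and -0.0789 under butyrate, and with array weights -0.0169 under acetate. With 1 array left out, Fads2 ran from -0.20 to 0.14 under acetate and from -0.0789 to 0.32 under butyrate, Elovl6 from -0.14 to 0.0793 under acetate, Scd2 from -0.27 to 0.13 under butyrate and Elovl5 from -0.0925 to 0.0268 under butyrate. Replicate numbers did not pair arrays across groups: deviations of arrays with the same number correlated at a mean of 0.04, against -0.01 for other numbers, and 10 of 31 arrays were closest to their own number. With the number as a replicate block 4 genes were called over all infusions (Scd1 -1.15) and 4 under propionate, and 454 of all genes. Only the groups compared could not be used for diet over all infusions, which holds all groups.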
